A study of Homo sapiens with 12 samples.

Results

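The 39 genes described here encode the machinery of mitosis, from the cyclins and kinases that start it to the proteins that separate the daughter cells. They were chosen by name, as the entries of the deposited count table whose gene symbol was on the list, and make up 39 of the 58735 genes in the table. Earlier results of these data were known when the genes were chosen. The table holds polyadenylated RNA of 2 immortalized human keratinocyte lines. HaCaT cells derive from skin, whereas TIGK cells derive from the gingiva. Each line was left untreated or exposed for 3 h to 5 mM H2O2. Every one of the 4 groups had 3 libraries, 12 in total. All groups were kept in DermaLife K Keratinocyte Complete Medium and had reached full confluency when H2O2 was added, so the untreated cells were not in sparse, freely growing culture. Each tissue is represented by 1 immortalized line, so skin or gingiva and line cannot be told apart. In the labels of the treated libraries the last digit of the compound's formula rises with the replicate number (H2O2, H2O3, H2O4), while the treatment protocol names H2O2 for all of them.

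In G2 phase cyclin B and CDK1 form the kinase that drives the cell into mitosis, with help from the Polo and Aurora kinases. Kinetochores then join the chromosomes to spindle microtubules, and the spindle checkpoint holds back the anaphase-promoting complex until all are attached. Transcripts of most of these genes build up in G2 phase and decline after division, and in stratified epithelium they mark the dividing cells of the basal layers.

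Many promoters of this kind carry a cell cycle genes homology region (CHR), bound by the DREAM and MuvB complexes, and CCAAT boxes, bound by NF-Y. Promoter sequences of RefSeq, build GRCh38.p14, were found for 34 of the 39 genes. There were none for AURKA, TTK, TPX2, BIRC5 and UBE2C in the table used. Over the window from 250 bases before to 50 bases after the annotated start, the CHR letters (TTTGAA, or the variant TTCGAA, on either strand) occurred in 25 of the 34 promoters (73.5%), against 16.6% of all 27305 promoters in the table. CCAAT on either strand occurred in 27 promoters (79.4%, against 35.7% of all), and 2 or more copies in 17 (50%, against 11.3%). Both motifs occurred in 21 promoters (61.8%, against 6.58%). These are matches of letters and no measure of binding. Other spellings of the CHR were not searched, so a window without these letters may still hold one. The 120 bases before the start are shown for genes on which the results turn. HMMR had a large response in both lines, CCNB2 and PLK1 responded in both, and CCNB1, CDC20, CENPA, KIF20A and KIF14 differed between the lines in their response. Capitals mark the CHR and CCAAT letters, also in reverse complement, and overlapping matches were all marked.
HMMR (chr5:163460512-163460631, plus strand): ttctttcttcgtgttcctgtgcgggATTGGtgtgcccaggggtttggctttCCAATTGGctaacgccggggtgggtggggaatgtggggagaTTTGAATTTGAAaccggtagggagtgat
CCNB2 (chr15:59105026-59105145, plus strand): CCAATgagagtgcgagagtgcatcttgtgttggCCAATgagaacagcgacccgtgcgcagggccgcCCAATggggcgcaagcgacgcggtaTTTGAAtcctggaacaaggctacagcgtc
PLK1 (chr16:23678769-23678888, plus strand): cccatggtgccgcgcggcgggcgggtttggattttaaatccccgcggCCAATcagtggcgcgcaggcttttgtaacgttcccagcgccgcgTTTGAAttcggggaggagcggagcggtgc
CDC20 (chr1:43358861-43358980, plus strand): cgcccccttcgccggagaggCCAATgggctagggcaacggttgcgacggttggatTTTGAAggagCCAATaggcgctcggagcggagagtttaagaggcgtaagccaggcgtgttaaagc
CENPA (chr2:26785936-26786055, plus strand): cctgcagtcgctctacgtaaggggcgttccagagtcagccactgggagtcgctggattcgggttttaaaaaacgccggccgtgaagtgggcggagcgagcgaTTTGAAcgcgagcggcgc
CCNB1 (chr5:69167030-69167149, plus strand): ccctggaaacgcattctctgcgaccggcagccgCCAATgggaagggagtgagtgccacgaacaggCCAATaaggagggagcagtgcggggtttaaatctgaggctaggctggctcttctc
KIF20A (chr5:138178992-138179111, plus strand): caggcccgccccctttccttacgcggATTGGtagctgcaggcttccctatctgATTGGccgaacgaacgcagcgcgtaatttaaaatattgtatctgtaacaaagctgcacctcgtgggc
KIF14 (chr1:200620752-200620871, minus strand): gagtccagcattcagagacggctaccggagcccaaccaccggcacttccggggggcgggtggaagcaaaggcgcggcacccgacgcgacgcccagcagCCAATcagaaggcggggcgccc
In CCNB2 and PLK1 the CHR began 29 bases before the start, and in CENPA 18 bases before it. HMMR held 2 copies in direct succession, the first beginning 28 bases before the start. The windows of CCNB1 and KIF20A held CCAAT boxes but none of the CHR letters, and the CHR match of KIF14 lay after the start, on the strand opposite to the gene.

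Total counts per library ranged from 30426401 to 49034244, and TMM factors from 0.962 to 1.04. The labels do not state whether the libraries of a group came from separate cultures, so the p-values measure the spread between these libraries, which may be technical. All 10 keratinocyte markers of a fixed list were expressed, with summed normalized counts from 1656000 to 1724000 in untreated HaCaT, from 1781000 to 1926000 in HaCaT after H2O2, from 1774000 to 1815000 in untreated TIGK and from 1922000 to 2022000 in TIGK after H2O2. The sum was higher after H2O2 in both lines without overlap, but its members did not move one way. KRT5, KRT14 and KRT6A were higher without overlap in both lines and KRT17 in HaCaT. TP63, ITGA6, LAMB3 and CDH1 were lower without overlap in both lines, DSG3 in HaCaT and ITGB4 in TIGK. Of 7 fibroblast markers 3 were tested, with sums of 319.4-417.8 in untreated HaCaT, 310.7-398.8 in treated HaCaT, 803.9-864.8 in untreated TIGK and 926.4-937.6 in treated TIGK. Of 6 melanocyte markers 2 were tested, with sums of 155.1-191.2, 207.5-230.3, 426.5-449.0 and 577.9-707.1 in the same order. Of these markers MITF was the highest in each group, at 81-128, 174-203, 383-396 and 541-635 normalized counts. PMEL reached at most 67.3 and MLANA at most 32.6 in any library, and TYR, DCT and SOX10 at most 11.1. The sums of 4 endothelial and 6 leukocyte markers, of which 1 each was tested, reached at most 59.68 and 124.4 in any library. Among the fibroblast markers COL1A2 was at 0 in all libraries, while COL1A1 had 294 to 668 normalized counts over the groups. DCN had 152 to 261 in TIGK and at most 6.63 in HaCaT. COL3A1, PDGFRA, PDGFRB and LUM reached at most 37.1 in any library. The share of counts on the mitochondrial chromosome fell with treatment, from 6.1-6.26% to 3.3-3.51% in HaCaT and from 3.33-3.45% to 1.39-1.5% in TIGK. The scaling was repeated without the mitochondrial genes, as given below. Any other part of these sums and shares in the results was not tested.

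All 39 genes averaged 10 or more raw counts per library and were tested, among 16618 genes. Normalized counts are raw counts scaled with TMM factors to a library of average size. Together the 39 genes took 0.238% ± 0.00681 (SD, n = 3) of all counts in untreated HaCaT and 0.322% ± 0.00651 after H2O2. In TIGK they took 0.236% ± 0.00351 untreated and 0.307% ± 0.00361 after H2O2. The shares of the untreated lines overlapped (0.233% to 0.246% in HaCaT, 0.233% to 0.24% in TIGK), whereas those of treated and untreated libraries did not overlap in either line. These values are relative to all RNA sequenced, so a rise of these transcripts and a loss of others cannot be told apart. In RNA from whole cultures, more cells in mitosis and more mitotic RNA per cell cannot be told apart either.

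Levels of different genes were compared per kilobase of exon length. CDC20, the activator of the anaphase-promoting complex, had the highest level per kilobase in all 4 groups, with mean normalized counts per kilobase of 2970 in untreated HaCaT, 4370 in treated HaCaT, 2360 in untreated TIGK and 2530 in treated TIGK. UBE2C, the ubiquitin-conjugating enzyme of the same complex, and TPX2, which activates Aurora A on the spindle, were among the next, at 1830 and 1750 in untreated HaCaT. NUSAP1, a microtubule-bundling protein, and PRC1, which crosslinks microtubules of the central spindle, were lowest in every group, at 43.5 and 5.41 in untreated HaCaT. PRC1 had 13 raw counts in its lowest library. In the annotation of the files PRC1 shares 29440 bases with a gene on the same strand, AC068831.7, which took a mean of 147 raw counts against 27.67 for PRC1. Reads of the pair may have been split, and the values of PRC1 are uncertain. NUSAP1 shares 48050 of the 48357 bases it spans with AC087721.2 on the same strand, which was listed at 0 against a mean of 142.7 raw counts for NUSAP1, and its level and rank are uncertain too. CENPA likewise shares 16943 bases with SLC35F6 on the same strand, with mean raw counts of 398.8 and 1390. Whether counting used strand is not given in the sources used here, and NUF2 overlaps RGS5, a protein-coding gene on the opposite strand, by 55216 bases, with mean raw counts of 625.6 and 45.3. CCNA2, KIF20A, KIF4A, KIF18A, ANLN and PLK1 overlap a protein-coding gene on the opposite strand by at most 578 bases.

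**Figure D1:**
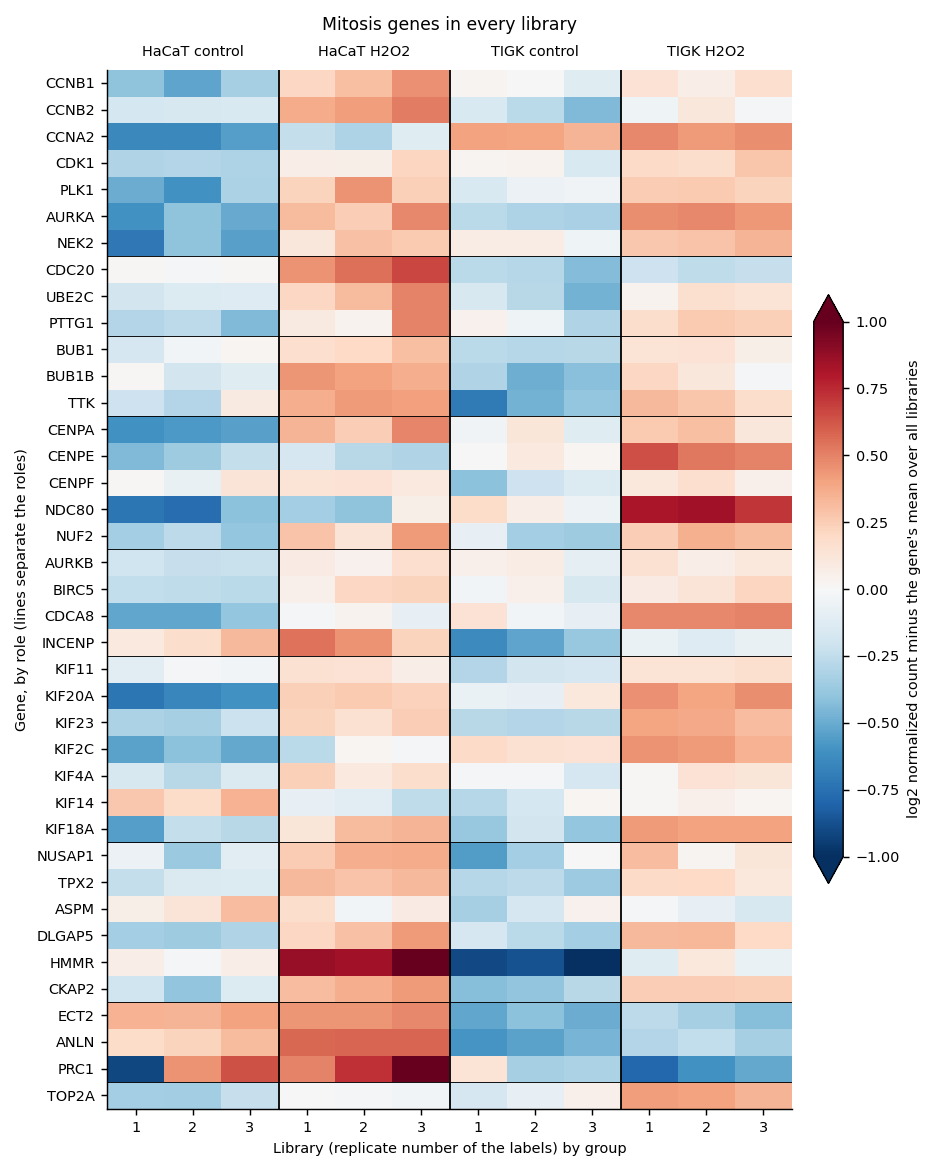
Mitosis genes in every library. Columns are the 12 libraries by group, lines of genes are ordered by role, and color is the log2 normalized count minus the mean of that gene over all libraries (blue lower, red higher, beyond 1 or -1 in the end color). Most genes are redder in treated than in untreated libraries of both lines, while KIF14 is bluer in treated than in untreated HaCaT.

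To find which mitosis genes changed after H2O2, treated and untreated libraries were compared within each line. A gene was called upregulated or downregulated at an edgeR adjusted p under 0.01 (quasi-likelihood test, Benjamini-Hochberg over all genes tested). In HaCaT 30 of the 39 genes were upregulated and 1, KIF14, was downregulated, where 18.9% of all genes tested were upregulated and 15.2% downregulated. In TIGK 24 were upregulated and 0 downregulated, where 10.2% and 12.9% of all genes were. The median log2 fold change of the 39 genes was 0.50 in HaCaT and 0.36 in TIGK, beside 0.04 and 0.01 over all genes tested. All 3 treated libraries lay above all 3 untreated ones for 33 of the 39 genes in HaCaT and for 33 in TIGK, against 29.7% and 25.7% of all genes. The highest fold change was that of CENPA in HaCaT, 1.92-fold. With the mitochondrial genes left out of the scaling, 29 genes were upregulated in HaCaT and 24 in TIGK. The background moved as well. Over all genes in HaCaT, 2522 were then upregulated and 2820 downregulated, against 3135 and 2529 in the main fit. In TIGK these counts were 1775 and 2081, against 1699 and 2151.

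The lines shared 20 upregulated genes, which were 66.7% of those in HaCaT and 83.3% of those in TIGK. Another 10 passed the threshold in HaCaT only (AURKB, BIRC5, CCNA2, CCNB1, CDC20, CENPA, KIF2C, KIF4A, NEK2 and PTTG1), and 4 in TIGK only (CENPE, CENPF, INCENP and KIF11). ASPM, ECT2, NUSAP1 and PRC1 passed it in neither line. Whether a gene's response differed between the lines was tested separately, as the response of HaCaT minus that of TIGK, and passed for 5 of the 39 genes. The response was higher in HaCaT for CCNB1, CDC20, KIF20A and CENPA (4 genes) and lower for KIF14, against 2.98% and 2.32% of all genes (5.3% either way). Over all genes this test called 496 higher and 385 lower, a split that became 346 and 522 when mitochondrial genes were left out of the scaling. For the other 34 genes no difference in response was shown.

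**Figure D2:**
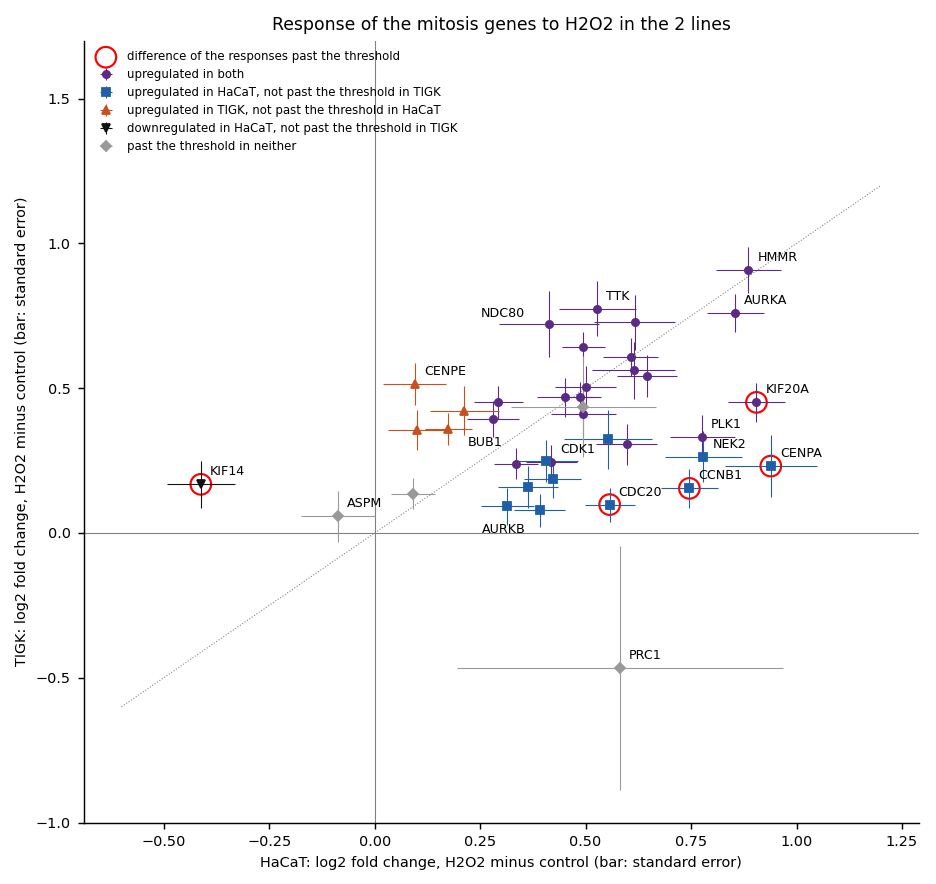
Response of each mitosis gene to H2O2. The x axis is the log2 fold change in HaCaT and the y axis that in TIGK (H2O2 minus control, bars are standard errors), shapes give the calls, red circles mark genes whose responses differed by their own test, and the dotted line marks equal responses. HMMR lies near the dotted line at 0.89 and 0.91, while CCNB1, CDC20, KIF20A and CENPA lie below it and KIF14 above it.

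Among the cyclins and kinases of mitotic entry, all 7 genes were upregulated in HaCaT and 4 in TIGK. CCNB1 encodes cyclin B1, the partner of CDK1 (ENSG00000134057, chr5:69167010-69178245). Its normalized counts were 3224, 2954 and 3380 in untreated HaCaT and 4927, 5260 and 5845 after H2O2. In TIGK they were 4351, 4278 and 3909 untreated and 4708, 4462 and 4784 after H2O2. The treated libraries lay above the untreated ones in both lines, by a wide gap in HaCaT and a narrow one in TIGK. The log2 fold change was 0.75 ± 0.068 (SE, edgeR adjusted p = 1.02e-07) in HaCaT and 0.15 ± 0.068 (edgeR adjusted p = 0.0834) in TIGK. The responses differed by 0.59 ± 0.096 on the log2 scale (edgeR adjusted p = 0.000477).

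CDK1 is the catalytic kinase of mitotic entry (ENSG00000170312, chr10:60778331-60794852). It had 3269, 3275 and 3240 normalized counts in untreated HaCaT and 4219, 4181 and 4674 after H2O2. The TIGK libraries had 4100, 4108 and 3621 untreated and 4598, 4527 and 4882 after H2O2. Treated and untreated libraries did not overlap in either line. CDK1 was upregulated by 0.42 ± 0.061 on the log2 scale in HaCaT (edgeR adjusted p = 2.54e-05) and by 0.24 ± 0.061 in TIGK (edgeR adjusted p = 0.00433). The TIGK call was lost without untreated TIGK replicate 3, treated replicate 1 or treated replicate 3 (edgeR adjusted p = 0.0289, 0.0119 and 0.0167).

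PLK1, the Polo kinase that acts in centrosome maturation and spindle assembly (ENSG00000166851, chr16:23677656-23690367), had 1315, 1222 and 1490 normalized counts in untreated HaCaT and 2171, 2536 and 2195 after H2O2. The TIGK libraries held 1671, 1780 and 1810 untreated and 2216, 2230 and 2170 after H2O2. No treated library overlapped an untreated one of its line. The log2 fold change was 0.78 ± 0.077 in HaCaT (edgeR adjusted p = 2.62e-07) and 0.33 ± 0.076 in TIGK (edgeR adjusted p = 0.00223), the latter no longer called without untreated TIGK replicate 1 (edgeR adjusted p = 0.0131). The difference of the responses, 0.45 ± 0.107, just missed the threshold (edgeR adjusted p = 0.0106), and DESeq2 placed it past the threshold (adjusted p = 0.00385).

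AURKA, the centrosomal Aurora kinase, had the highest response of the entry group in both lines. Its mean normalized count in HaCaT was 1631 ± 115 (SD, n = 3) untreated and 2946 ± 243 treated, 1.81-fold more. The TIGK means were 1875 ± 36.1 and 3178 ± 53.8, a change of 1.7-fold. CCNB2, the second B-type cyclin, was upregulated 1.51-fold in HaCaT and 1.24-fold in TIGK, the latter call being lost without untreated TIGK replicate 3 or treated replicate 2 (edgeR adjusted p = 0.0206 and 0.0146). NEK2, a kinase that splits the centrosome pair, averaged 504.4 ± 55.0 normalized counts in untreated and 863 ± 55.7 in treated HaCaT, and 755.2 ± 34.8 and 906.8 ± 24.7 in TIGK, where the change did not pass the threshold (edgeR adjusted p = 0.0259). The difference of the NEK2 responses, 0.51 ± 0.126 on the log2 scale, narrowly missed the threshold (edgeR adjusted p = 0.012). CCNA2, cyclin A2 of S and G2 phase, had 1587, 1595 and 1701 normalized counts in untreated HaCaT and 2107, 2008 and 2286 after H2O2. In TIGK its values were 3284, 3266 and 3153 untreated and 3474, 3336 and 3430 treated. Every TIGK library lay above every HaCaT library for CCNA2, and it was upregulated in HaCaT alone (log2 fold change 0.39 ± 0.06, edgeR adjusted p = 4.02e-05, against 0.08 ± 0.058 in TIGK). The difference of its responses did not pass the threshold (edgeR adjusted p = 0.0189).

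Of the genes of anaphase onset, all 3 were upregulated in HaCaT and UBE2C in TIGK. CDC20 (ENSG00000117399, chr1:43358955-43363203) had 6082, 5995 and 6080 normalized counts in untreated HaCaT and 8264, 8850 and 9599 after H2O2. TIGK had 5011, 4945 and 4471 untreated and 5242, 5066 and 5139 treated. The treated libraries exceeded the untreated ones in both lines, in TIGK by a few percent over the highest untreated library. CDC20 was upregulated by 0.56 ± 0.059 on the log2 scale in HaCaT (edgeR adjusted p = 6.49e-07), while its log2 fold change in TIGK was 0.10 ± 0.059 (edgeR adjusted p = 0.208). The responses differed by 0.46 ± 0.083 (edgeR adjusted p = 0.00133). That call was lost without treated HaCaT replicate 2, untreated TIGK replicate 2, treated TIGK replicate 2 or treated TIGK replicate 3 (edgeR adjusted p = 0.0114, 0.0194, 0.0202 and 0.0171). UBE2C was upregulated 1.41-fold in HaCaT and 1.33-fold in TIGK. PTTG1, the securin that inhibits separase, averaged 1575 ± 104 normalized counts in untreated and 2310 ± 425 in treated HaCaT, and 1853 ± 224 and 2319 ± 71.7 in TIGK (edgeR adjusted p = 0.000288 and 0.0201). PTTG1 passed the threshold in TIGK in 3 of 20 alternatives.

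All 3 genes of the spindle checkpoint were upregulated in both lines. BUB1, which recruits checkpoint proteins to the kinetochore (ENSG00000169679, chr2:110637698-110678114), had 1836, 2019 and 2085 normalized counts in untreated HaCaT and 2308, 2366 and 2533 after H2O2. In TIGK the counts were 1703, 1687 and 1693 untreated and 2263, 2273 and 2148 treated. Groups did not overlap in either line. BUB1 was upregulated by 0.28 ± 0.062 on the log2 scale in HaCaT (edgeR adjusted p = 0.00122; 0.0123 without untreated HaCaT replicate 1) and by 0.39 ± 0.062 in TIGK (edgeR adjusted p = 7.67e-05). TTK, the Mps1 kinase that starts checkpoint signaling (ENSG00000112742, chr6:80003887-80042527), had 1331, 1256 and 1640 normalized counts in untreated HaCaT and 1976, 2071 and 2050 after H2O2. The TIGK libraries had 944, 1110 and 1180 untreated and 1925, 1871 and 1740 after H2O2. The treated libraries of TTK lay well above the untreated ones, and its log2 fold change was 0.53 ± 0.092 in HaCaT and 0.77 ± 0.094 in TIGK (edgeR adjusted p = 0.000147 and 3.85e-06). BUB1B, the BubR1 subunit that inhibits CDC20, was upregulated 1.41-fold in HaCaT and 1.42-fold in TIGK.

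At the centromere and kinetochore, 3 of 5 genes were upregulated in HaCaT and 4 of 5 in TIGK. CENPA, the histone H3 variant that marks the centromere (ENSG00000115163, chr2:26764289-26801067), had 258, 263 and 269 normalized counts in untreated HaCaT and 497, 464 and 551 after H2O2. For TIGK the counts were 383, 425 and 361 untreated and 469, 483 and 423 after H2O2. The HaCaT groups were far apart, whereas the lowest treated TIGK library lay within the untreated range. CENPA had the highest HaCaT response of the 39 genes, 0.94 ± 0.109 (log2, edgeR adjusted p = 1.97e-06), with 0.23 ± 0.107 in TIGK (edgeR adjusted p = 0.0986). The difference of 0.71 ± 0.152 passed the threshold (edgeR adjusted p = 0.00508), though not in 12 of 19 alternatives. It was lost without any single library other than treated HaCaT replicate 2 and untreated TIGK replicate 3, with an adjusted p up to 0.0343 (without untreated TIGK replicate 2).

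NDC80, a microtubule-binding subunit of the outer kinetochore (ENSG00000080986, chr18:2571511-2616635), had 471, 459 and 583 normalized counts in untreated HaCaT and 612, 589 and 809 after H2O2. TIGK had 884, 813 and 750 untreated and 1367, 1391 and 1278 after H2O2. Treated libraries lay above untreated ones in both lines, narrowly in HaCaT. The log2 fold change was 0.41 ± 0.118 in HaCaT (edgeR adjusted p = 0.00785) and 0.72 ± 0.113 in TIGK (edgeR adjusted p = 6.83e-05). The HaCaT call was lost in 12 of 20 alternatives, among them without untreated HaCaT replicate 1 or 2, treated HaCaT replicate 3, untreated TIGK replicate 2 or any treated TIGK library, with the smallest value, 0.25, without treated HaCaT replicate 3 (edgeR adjusted p = 0.0666).

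CENPE, the kinesin that carries chromosomes to the spindle equator (ENSG00000138778, chr4:103105806-103198409), had 891, 945 and 1023 normalized counts in untreated HaCaT and 1074, 996 and 981 after H2O2. In TIGK it had 1212, 1294 and 1224 untreated and 1894, 1738 and 1700 treated. The groups overlapped in HaCaT and were separate in TIGK. Its log2 fold change was 0.09 ± 0.075 in HaCaT (edgeR adjusted p = 0.32) and 0.51 ± 0.073 in TIGK (edgeR adjusted p = 2.36e-05). The difference of the responses, -0.42 ± 0.104, did not pass the threshold (edgeR adjusted p = 0.013), but did so with DESeq2 (adjusted p = 0.00141). NUF2, the partner of NDC80, was upregulated 1.53-fold in HaCaT and 1.48-fold in TIGK. CENPF, a kinetochore protein of G2 phase, was upregulated in TIGK (1.28-fold, edgeR adjusted p = 0.000578), with an adjusted p of 0.248 in HaCaT.

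The chromosomal passenger complex corrects faulty attachments and helps to place the cleavage furrow. Of its 4 genes 3 were upregulated in HaCaT and 2 in TIGK, with CDCA8 in both. AURKB, its kinase (ENSG00000178999, chr17:8204733-8210600), had 1574, 1533 and 1547 normalized counts in untreated HaCaT and 1908, 1855 and 2024 after H2O2. The TIGK libraries held 1869, 1899 and 1694 untreated and 2002, 1886 and 1934 treated. The HaCaT groups were separate and the TIGK groups overlapped. The log2 fold change was 0.31 ± 0.063 in HaCaT (edgeR adjusted p = 0.000514) and 0.09 ± 0.063 in TIGK (edgeR adjusted p = 0.27). CDCA8 (borealin), which brings the complex to centromeres, was upregulated 1.37-fold in HaCaT and 1.38-fold in TIGK. BIRC5 (survivin), a targeting subunit, was upregulated 1.34-fold in HaCaT (edgeR adjusted p = 5.46e-05, against 0.0335 in TIGK). In TIGK it passed the threshold without treated HaCaT replicate 1 (edgeR adjusted p = 0.00833). INCENP, the scaffold, was upregulated 1.34-fold in TIGK (edgeR adjusted p = 0.000688, against 0.0412 in HaCaT). In HaCaT it passed the threshold without treated HaCaT replicate 3 (edgeR adjusted p = 0.00377).

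The 7 mitotic kinesins held both the second highest response in HaCaT and the only member downregulated there. KIF20A, a kinesin of cytokinesis (ENSG00000112984, chr5:138178719-138187715), had 851, 894 and 923 normalized counts in untreated HaCaT and 1658, 1687 and 1650 after H2O2. For TIGK the counts were 1341, 1329 and 1514 untreated and 1931, 1847 and 1941 after H2O2. The groups were far apart in both lines. KIF20A was upregulated by 0.91 ± 0.068 on the log2 scale in HaCaT (edgeR adjusted p = 8.94e-09) and by 0.45 ± 0.067 in TIGK (edgeR adjusted p = 3.72e-05). The difference of 0.45 ± 0.095 passed the threshold (edgeR adjusted p = 0.00415), but was lost in 10 of 19 alternatives. It was kept without untreated HaCaT replicate 3, treated HaCaT replicate 3, untreated TIGK replicate 1 or untreated TIGK replicate 3, and lost without any other library, with an adjusted p up to 0.0365 (without treated TIGK replicate 2).

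KIF14, a kinesin that acts at the midbody (ENSG00000118193, chr1:200551497-200620734), had 1460, 1369 and 1535 normalized counts in untreated HaCaT and 1144, 1124 and 1013 after H2O2. TIGK had 991, 1072 and 1226 untreated and 1217, 1255 and 1222 after H2O2. All treated HaCaT libraries lay below all untreated ones, while the TIGK groups overlapped. KIF14 was downregulated in HaCaT by -0.41 ± 0.081 on the log2 scale (edgeR adjusted p = 0.000456), with a log2 fold change of 0.17 ± 0.081 in TIGK (edgeR adjusted p = 0.116). The responses differed by -0.58 ± 0.115 (edgeR adjusted p = 0.00276). The calls for KIF14 in HaCaT and for its difference of responses were kept in all 20 and 19 alternative fits at the same threshold, but both are below a log2 fold change of 1 in size.

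KIF23, the motor of centralspindlin, averaged 3779 ± 172 normalized counts in untreated and 5326 ± 176 in treated HaCaT (1.41-fold), and 3790 ± 26.3 and 5916 ± 175 in TIGK (1.56-fold). KIF18A, which dampens chromosome movement, was upregulated 1.53-fold in HaCaT and 1.66-fold in TIGK. KIF11 (Eg5), which pushes the spindle poles apart, was upregulated 1.28-fold in TIGK (edgeR adjusted p = 6.19e-05), with an adjusted p of 0.0148 in HaCaT and of 0.00877 without treated HaCaT replicate 3. KIF2C (MCAK), which shortens microtubules, and KIF4A, which binds chromosome arms, were upregulated in HaCaT (1.33-fold and 1.29-fold). KIF2C had an edgeR adjusted p of 0.0116 in TIGK and passed the threshold there in 9 of 20 alternatives.

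Among 6 other spindle proteins, 4 were upregulated in both lines. HMMR, which binds hyaluronan and spindle microtubules (ENSG00000072571, chr5:163460203-163491945), had 1388, 1314 and 1388 normalized counts in untreated HaCaT and 2431, 2377 and 2749 after H2O2. In TIGK it had 712, 725 and 657 untreated and 1225, 1433 and 1269 after H2O2. Treated TIGK thus covered the range of untreated HaCaT. HMMR was upregulated by 0.89 ± 0.076 on the log2 scale in HaCaT (edgeR adjusted p = 4.28e-08) and by 0.91 ± 0.079 in TIGK, the highest value there (edgeR adjusted p = 6.56e-08). The difference of its responses was -0.02 ± 0.109 (edgeR adjusted p = 0.938). TPX2 averaged 6304 ± 243 normalized counts in untreated and 8828 ± 146 in treated HaCaT, and 5765 ± 207 and 7989 ± 281 in TIGK. CKAP2, a microtubule stabilizer, was upregulated 1.52-fold in both lines, and DLGAP5 (HURP), which stabilizes kinetochore fibers, 1.56-fold in HaCaT and 1.46-fold in TIGK.

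ASPM, a protein of the spindle poles (ENSG00000066279, chr1:197084128-197146694), did not pass the threshold in either line. It had 2179, 2287 and 2594 normalized counts in untreated HaCaT and 2370, 2052 and 2222 after H2O2. TIGK had 1667, 1865 and 2157 untreated and 2068, 1980 and 1873 treated. The groups overlapped in both lines, with log2 fold changes of -0.09 ± 0.087 in HaCaT (edgeR adjusted p = 0.442) and 0.06 ± 0.087 in TIGK (edgeR adjusted p = 0.65). NUSAP1 averaged 125 ± 13.7 normalized counts in untreated and 176.8 ± 7.57 in treated HaCaT, and 115.5 ± 22.6 and 156.6 ± 16.0 in TIGK, without overlap but short of the threshold (edgeR adjusted p = 0.0249 and 0.0592).

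Of the genes of cytokinesis, ANLN, the anillin scaffold of the contractile ring, was upregulated in both lines, 1.26-fold in HaCaT and 1.18-fold in TIGK (edgeR adjusted p = 4.93e-05 and 0.00172; 0.011 in TIGK without untreated TIGK replicate 1). ECT2, the exchange factor that activates RhoA at the furrow (ENSG00000114346, chr3:172750682-172821474), had 5685, 5660 and 5908 normalized counts in untreated HaCaT and 6061, 6074 and 6246 after H2O2. The TIGK libraries held 3117, 3359 and 3171 untreated and 3730, 3549 and 3327 treated. The HaCaT groups were narrowly apart and the TIGK groups overlapped, and neither change passed the threshold (edgeR adjusted p = 0.172 and 0.0585).

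PRC1 (ENSG00000198901, chr15:90966038-90995629) had 13.8, 35.4 and 40.5 normalized counts in untreated HaCaT and 36.7, 43.1 and 52.3 after H2O2. For TIGK the counts were 28.5, 20.7 and 20.9 untreated and 15.1, 17.1 and 18.2 treated. The HaCaT groups overlapped and the treated TIGK libraries lay below the untreated ones. At these counts the log2 fold changes of 0.58 ± 0.387 in HaCaT and -0.47 ± 0.421 in TIGK and their difference of 1.05 ± 0.572 were not past the threshold (edgeR adjusted p = 0.233, 0.416 and 0.262). TOP2A, the topoisomerase that untangles sister chromatids, was upregulated 1.23-fold in HaCaT and 1.37-fold in TIGK.

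**Figure D3:**
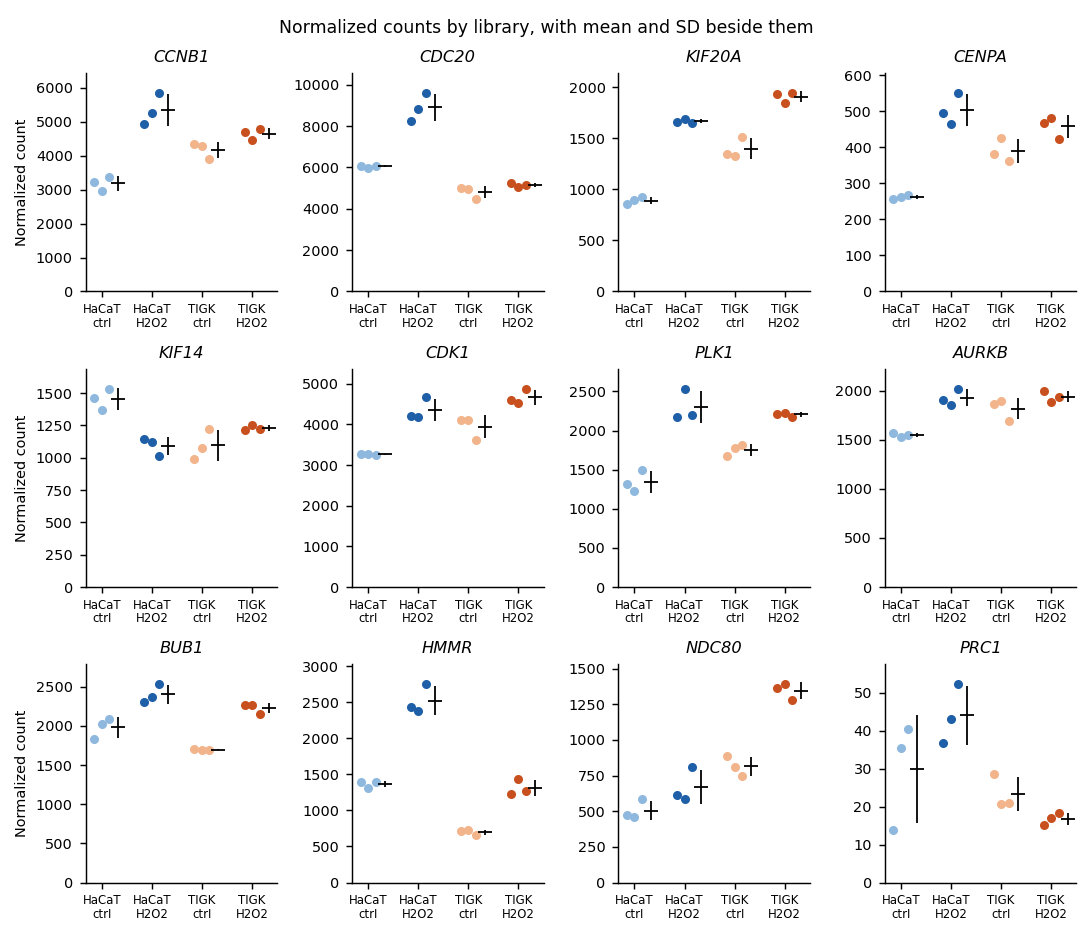
Normalized counts of 12 mitosis genes in every library. Each point is a library, and the bar beside it is the mean with its SD (n = 3); y axes start at 0. In the top line, untreated HaCaT lies below untreated TIGK for CCNB1, KIF20A and CENPA, and KIF14 is the gene that falls after H2O2 in HaCaT.

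To compare the lines themselves, HaCaT was set against TIGK without treatment and after H2O2. In untreated cells 11 of the 39 genes were higher and 14 lower in HaCaT, where 29.1% of all genes were higher and 30.8% lower (59.9% either way). The share of the 39 genes that differed was near this background. After H2O2, 8 were higher and 6 lower, where 30.2% and 29.8% of all genes were (60.0% either way), a share of the 39 genes below the background. The median log2 fold change of the 39 genes, HaCaT minus TIGK, was -0.04 untreated and 0.03 after H2O2. Libraries of the lines did not overlap for 13 higher and 15 lower genes untreated (36.2% and 37.1% of all genes) and for 14 higher and 10 lower genes after H2O2 (35.8% and 35.6%).

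Higher in HaCaT under both conditions were 6 genes (ANLN, BUB1B, CDC20, ECT2, HMMR and INCENP), 54.5% of those higher untreated and 75% of those higher after H2O2. Lower under both were also 6 (CCNA2, CDCA8, CENPE, KIF2C, NDC80 and TOP2A), 42.9% and 100% of the lower genes. AURKB, BIRC5, CCNB1, CDK1, CENPA, KIF20A, NEK2 and PLK1 were lower in HaCaT only without treatment, and ASPM, BUB1, CENPF, KIF14 and TTK higher only without treatment. CCNB2 and PRC1 were higher only after H2O2. Of these 15 genes the change of the difference itself, which equals the difference of the responses, passed the threshold for CCNB1, CENPA, KIF20A and KIF14.

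Counts by role were as follows, with no test between roles. In untreated HaCaT 29.1% of all genes were higher and 30.8% lower. Of the entry group 5 of 7 genes were lower there and 0 higher, the 3 checkpoint genes were all higher, and 2 of 3 cytokinesis genes were higher. After H2O2, 30.2% of all genes were higher and 29.8% lower. Then 1 entry gene was higher and 1 lower, 1 checkpoint gene (BUB1B) was higher, and all 3 cytokinesis genes were higher in HaCaT. The last count includes PRC1, a gene of low counts whose call was lost in 5 of 20 alternatives. The widest differences in untreated cells were HMMR at 0.97 ± 0.079 and ECT2 at 0.84 ± 0.054 on the log2 scale (edgeR adjusted p = 2.23e-09 and 6.91e-11), and CCNA2 at -0.99 ± 0.059 and NDC80 at -0.69 ± 0.117 (edgeR adjusted p = 2.23e-11 and 3.15e-05). The values by library above show no overlap between the lines for any of these 4 genes in untreated cells. ANLN was 1.71-fold and INCENP 1.64-fold higher in untreated HaCaT.

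After H2O2 the widest differences were PRC1 at 1.38 ± 0.406 and HMMR at 0.94 ± 0.076 (edgeR adjusted p = 0.00557 and 1.71e-09), and NDC80 at -1.0 ± 0.114 and CENPE at -0.80 ± 0.074 (edgeR adjusted p = 2.4e-07 and 1.13e-08). The PRC1 call was lost when any treated library other than HaCaT replicate 1 was left out (edgeR adjusted p from 0.0146 to 0.0228). CDC20 was higher in HaCaT by 0.33 ± 0.059 untreated and by 0.79 ± 0.059 after H2O2 (edgeR adjusted p = 5.96e-05 and 5.95e-10). CCNB1 went from -0.39 ± 0.068 to 0.20 ± 0.068 (edgeR adjusted p = 4.71e-05 and 0.0134).

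For the other defining genes the lines were close after H2O2. CDK1 was at -0.27 ± 0.061 untreated and -0.10 ± 0.061 after H2O2 (edgeR adjusted p = 0.000591 and 0.155). PLK1 was at -0.38 ± 0.077 and 0.06 ± 0.075 (edgeR adjusted p = 0.000191 and 0.485), and AURKB at -0.23 ± 0.063 and -0.01 ± 0.063 (edgeR adjusted p = 0.00321 and 0.918). BUB1 was at 0.22 ± 0.063 and 0.11 ± 0.062 (edgeR adjusted p = 0.0038 and 0.125). In untreated cells the call for CDK1 was lost without untreated TIGK replicate 2 (edgeR adjusted p = 0.0101). That for AURKB was lost without untreated HaCaT replicate 2 or untreated TIGK replicate 1 or 2 (edgeR adjusted p = 0.0134, 0.0151 and 0.0371), and that for BUB1 without untreated HaCaT replicate 2 or 3 or untreated TIGK replicate 1 (edgeR adjusted p = 0.0172, 0.047 and 0.0103).

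**Figure D4:**
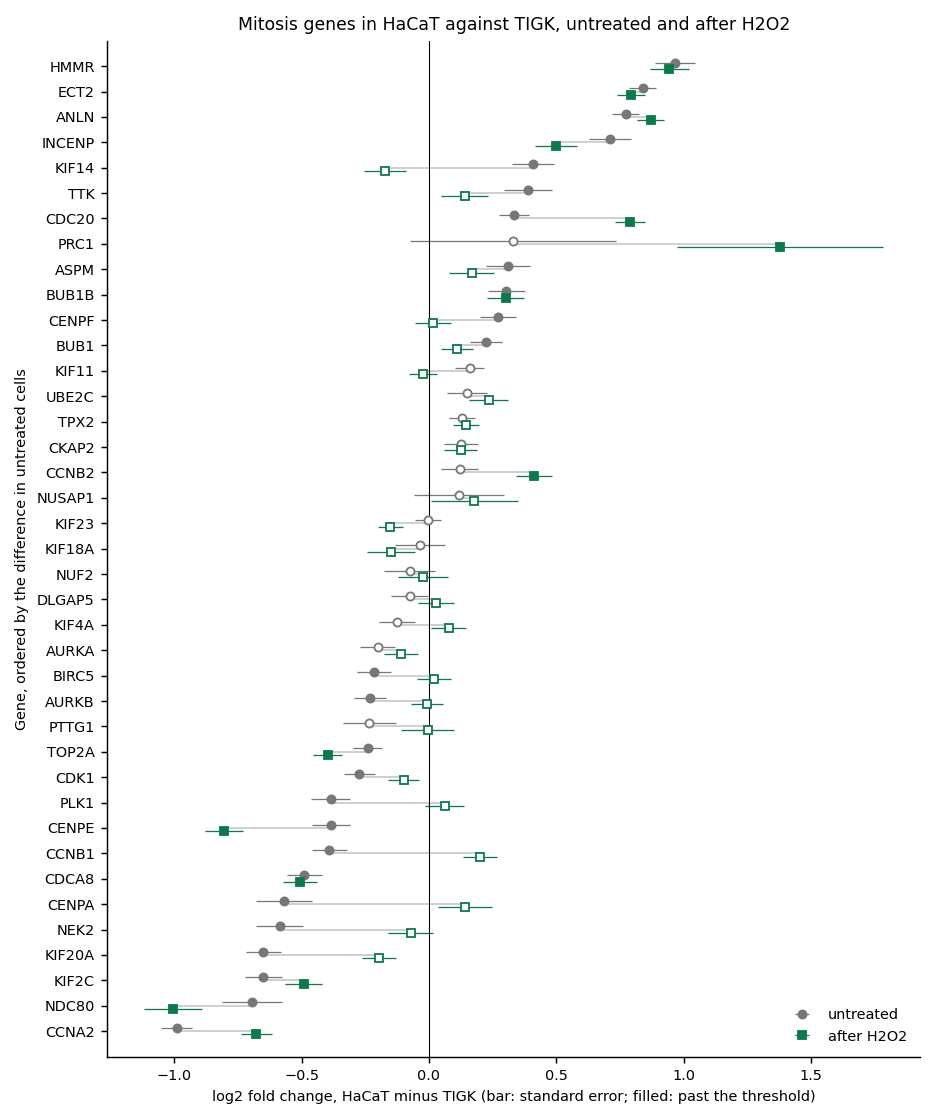
HaCaT against TIGK for each mitosis gene. The x axis is the log2 fold change, HaCaT minus TIGK, with standard errors as bars; grey circles are untreated and green squares H2O2-treated cells, filled where past the threshold. CCNB1, CENPA, KIF20A, NEK2 and PLK1 lie well to the left in untreated cells. After H2O2 CENPA, NEK2 and PLK1 lie near 0. CCNB1 then lies at 0.20 and KIF20A at -0.20, both short of the threshold, with libraries of the lines still apart. HMMR, ECT2 and ANLN stay to the right and CCNA2 and NDC80 to the left.

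Responses were set beside properties that had played no part in the choice of the genes. Across the 39 genes, Spearman's rho between response and span in the genome was -0.371 in HaCaT and 0.226 in TIGK, and -0.588 for the difference of the responses. Over the 13469 protein-coding genes tested it was -0.189, -0.0833 and -0.153. With exon length in place of span the values were -0.497, 0.0804 and -0.587 for the 39 genes and -0.345, -0.234 and -0.195 for the protein-coding genes. These correlations are across genes, which share libraries and are not independent replicates. Of the 5 genes whose responses differed, CDC20, KIF20A, CCNB1 and CENPA, higher in HaCaT, span 4249, 8997, 11236 and 36779 bases, and KIF14, lower in HaCaT, spans 69238. Spans are those of the annotation of the files. There CENPA begins at 26764289 and NUF2 at 163266576, well upstream of the RefSeq promoters used (from 26785936 and 163321834). The spans of both genes thus depend on the annotation.

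**Figure D5:**
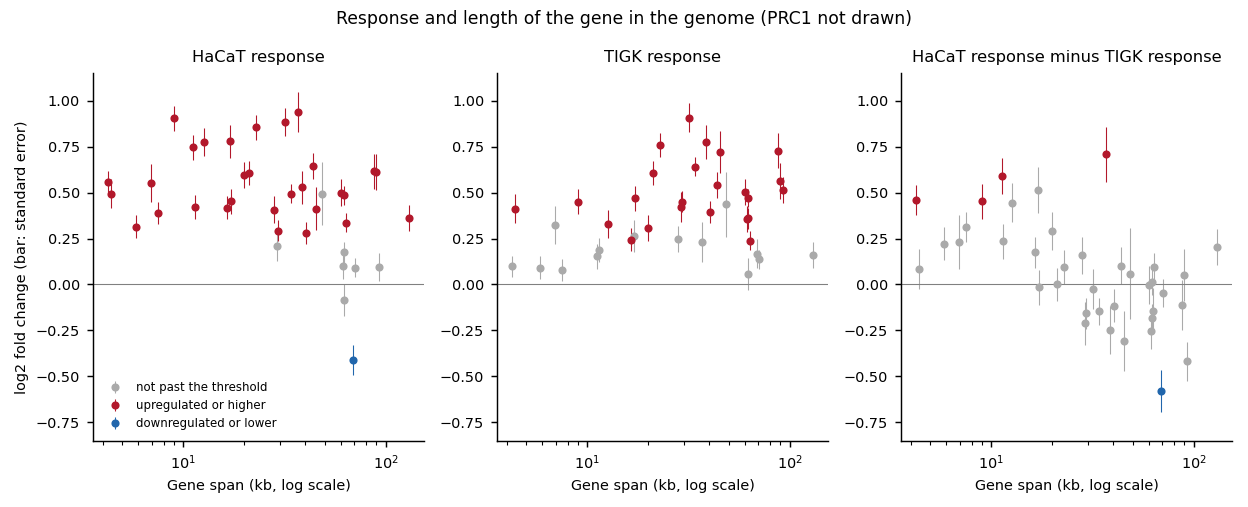
Response and span of the gene. The x axis is the span of the gene in the genome in kilobases on a log scale, the y axis the log2 fold change with its standard error, for the response of HaCaT, the response of TIGK and their difference; PRC1 is not drawn. In the right panel short genes lie mostly above 0 and long genes mostly below, with a rho of -0.588 over all 39 genes.

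The 25 genes with TTTGAA or TTCGAA in the promoter window had a median log2 fold change of 0.45 in HaCaT and 0.36 in TIGK. The 9 without these letters had 0.55 and 0.26, and may hold other spellings of the CHR. Of the 25, 17 were upregulated in each line, and of the 9, 8 in HaCaT and 3 in TIGK (18.9% and 10.2% of all genes). In untreated cells 10 genes with the letters were higher and 6 lower in HaCaT. Among those without them 0 were higher and 7 lower, beside 29.1% and 30.8% of all genes. For CCAAT the medians were 0.50 in HaCaT and 0.32 in TIGK for the 27 genes with it, and 0.41 and 0.51 for the 7 without it. These splits were not tested.

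Other cell cycle genes were read from lists written by hand, with the same test and threshold. These lists too were written with earlier results of these data known. Of all genes, 18.9% were upregulated and 15.2% downregulated in HaCaT, and 10.2% and 12.9% in TIGK. Between the lines 59.9% of all genes differed untreated and 60.0% after H2O2, and the response differed for 5.3%. Of 26 regulators of mitotic transcription and entry, 13 were upregulated and 2 downregulated in HaCaT, and 9 and 4 in TIGK. Medians over the list were 0.29 in HaCaT and 0.13 in TIGK (log2 fold change). WEE1, the kinase that restrains CDK1, had the highest log2 fold change in both lines, 1.41 ± 0.061 and 1.02 ± 0.061 (edgeR adjusted p = 3.15e-12 and 2.93e-10), and FBXO5 (EMI1), an inhibitor of the anaphase-promoting complex, the lowest among those that passed the threshold, -0.33 ± 0.082 and -0.59 ± 0.081 (edgeR adjusted p = 0.00311 and 1.88e-05). The responses differed for 2 of the 26, near the share of all genes. These were WEE1, by 0.39 ± 0.085, and CDC25A, a phosphatase that activates CDKs, by 0.51 ± 0.095 (edgeR adjusted p = 0.00564 and 0.0018). Between the lines 6 were higher and 11 lower in untreated HaCaT and 9 and 8 after H2O2, either way near the shares of all genes. Among those past the threshold MYBL2 was lowest (-1.23 ± 0.057 and -1.02 ± 0.057) and MASTL highest (1.02 ± 0.085 and 1.22 ± 0.083). LIN37, a subunit of the complex that represses cell cycle genes, was lower than these limits in HaCaT and between treated lines but did not pass (-1.31 ± 0.683 and -1.49 ± 0.677, edgeR adjusted p = 0.126 and 0.0582).

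Of 16 genes of the anaphase-promoting complex, 7 were upregulated in HaCaT and 2 in TIGK, and 0 were downregulated in either. The count of 2 in TIGK is near the 10.2% of all genes. The median log2 fold changes were 0.17 in HaCaT and 0.13 in TIGK. CDC23 was upregulated in both lines (0.34 ± 0.059 in HaCaT and 0.53 ± 0.059 in TIGK), and ANAPC10 had the highest value in HaCaT (0.74 ± 0.21). In untreated HaCaT 5 of the 16 were higher and 3 lower than in TIGK, and after H2O2 7 and 4. Over all genes 59.9% differed untreated and 60.0% after H2O2. ANAPC4 was lowest (-1.13 ± 0.074 and -1.08 ± 0.074) and FZR1, the second activator of the complex, highest (0.90 ± 0.07 and 0.88 ± 0.07).

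Of 37 other kinetochore and checkpoint genes, 15 were upregulated and 1 downregulated in each line. Medians over the list were 0.25 in HaCaT and 0.23 in TIGK (log2 fold change). OIP5, a CENPA loading factor, was highest in HaCaT (0.89 ± 0.117) and SGO2, a protector of centromeric cohesion, in TIGK (1.01 ± 0.089), with CENPC lowest in HaCaT (-0.52 ± 0.12) and CENPN in TIGK (-0.26 ± 0.069). In untreated HaCaT 8 were higher and 12 lower, and after H2O2 10 and 13. Either way these counts were near the 59.9% and 60.0% of all genes that differed. The widest differences were CENPN at -1.43 ± 0.071 untreated, SPC24 at -1.33 ± 0.101 after H2O2, and SKA3 at 1.1 ± 0.081 and 1.44 ± 0.08.

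The 19 condensin and cohesin genes, which shape and hold chromosomes, had a median log2 fold change of 0.00 in HaCaT and 0.06 in TIGK. In HaCaT 4 were upregulated and 4 downregulated, from NIPBL, the cohesin loader, at -0.42 ± 0.06 to CDCA5 (sororin) at 0.23 ± 0.055. In TIGK 2 were upregulated, NCAPH and SMC3, by 0.29 ± 0.065 and 0.28 ± 0.051, and 0 downregulated. The 4 in each direction in HaCaT and the 2 in TIGK are near the shares of all genes (18.9%, 15.2% and 10.2%). Between the lines 8 were higher and 7 lower in untreated HaCaT and 6 and 7 after H2O2. Over all genes 59.9% differed untreated and 60.0% after H2O2. NCAPG was lowest (-1.32 ± 0.063 and -1.33 ± 0.063) and STAG1 highest (1.41 ± 0.065 and 1.16 ± 0.064).

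Of 23 other spindle and cytokinesis genes, 16 were upregulated and 2 downregulated in HaCaT, and 10 were upregulated in TIGK. The median log2 fold changes were 0.37 in HaCaT and 0.22 in TIGK. FAM83D, which recruits a kinase to the spindle, was highest in HaCaT (0.79 ± 0.063) and the response of HaCaT exceeded that of TIGK by 0.40 ± 0.087 (edgeR adjusted p = 0.0051). DEPDC1 was highest in TIGK (0.67 ± 0.082) and RACGAP1, the partner of KIF23, was at 0.36 ± 0.058 there. MKI67, the proliferation marker Ki-67, was downregulated in HaCaT by -0.36 ± 0.073 (edgeR adjusted p = 0.000576). In untreated HaCaT 8 of the 23 were higher and 6 lower than in TIGK, and after H2O2 8 and 4. Either way these counts were near the 59.9% and 60.0% of all genes that differed. SHCBP1 was lowest in HaCaT (-1.0 ± 0.064 and -1.04 ± 0.063), and KIF20B was highest untreated (0.76 ± 0.06) and KNSTRN after H2O2 (0.99 ± 0.074).

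Of 42 genes of DNA replication and the G1/S transition, 25 were upregulated and 2 downregulated in HaCaT, and 12 and 4 in TIGK. Medians over the list were 0.31 in HaCaT and 0.17 in TIGK (log2 fold change). E2F1, a transcription factor of S phase entry, was highest in HaCaT (0.91 ± 0.086) and E2F2 in TIGK (0.50 ± 0.112), while POLE, the leading strand polymerase, was lowest in both (-0.63 ± 0.07 and -0.68 ± 0.069). The response was higher in HaCaT for 5 of the 42, from SLBP at 0.45 ± 0.079 to CDT1 at 0.86 ± 0.098, and lower for 0. Over all genes it was higher for 2.98% and lower for 2.32%. In untreated HaCaT 6 were higher and 26 lower than in TIGK, beside 29.1% and 30.8% of all genes. After H2O2 8 were higher and 22 lower, beside 30.2% and 29.8%. CDT1 was lowest untreated (-1.46 ± 0.071), RRM2 lowest after H2O2 (-1.42 ± 0.062) and MCM10 highest (1.24 ± 0.063 and 1.26 ± 0.063).

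Of 19 CDK inhibitors and other brakes of the cell cycle, 9 were upregulated and 1 downregulated in HaCaT, and 12 and 2 in TIGK. The median log2 fold changes were 0.41 in HaCaT and 0.45 in TIGK. GADD45B, a stress-induced gene, was highest in HaCaT (1.36 ± 0.118) and PLK2, a stress-induced Polo kinase, in TIGK (2.05 ± 0.066), and CCNG2 was lowest in both (-0.30 ± 0.084 and -0.92 ± 0.082). The response was higher in HaCaT for 2 of the 19 and lower for 5, from PLK2 at -1.53 ± 0.089 to CCNG2 at 0.61 ± 0.117. Over all genes it was higher for 2.98% and lower for 2.32%. In untreated HaCaT 5 were higher and 9 lower than in TIGK, beside 29.1% and 30.8% of all genes. After H2O2 6 were higher and 10 lower, beside 30.2% and 29.8%. CDKN1C (p57), at 4.135 ± 3.64 normalized counts in untreated HaCaT and 620.8 ± 15.5 in untreated TIGK, was lowest in both (-7.12 ± 0.283 and -7.10 ± 0.266), and PLK2 was highest untreated (1.73 ± 0.065) and SFN after H2O2 (1.19 ± 0.062).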

How the data were processed

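Polyadenylated RNA of 12 libraries (2 keratinocyte lines, untreated or exposed to H2O2, 3 libraries per group) was sequenced by the authors. The deposited table holds raw read counts per gene, not normalized. The submitters' processing notes name HISAT2 (versions 2.0.0 and 2.0.5), StringTie 1.3.3b, featureCounts 1.5.0-p3 and DESeq2 and the builds GRCh38 and hg38. The annotation release, the strand setting and the handling of multimapping reads are not given in the sources used here. The deposited lists of the authors' own comparisons, which hold fold changes and p-values, were not used. Lines without a gene and unused sample columns numbered 0 each.

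The members and the gene lists were chosen with earlier results of these data known. Genes averaging 10 or more raw counts per library (16618 of 58735) were normalized by TMM and fitted with edgeR 4.0.16 (R 4.3.3, limma 3.58.1) in 1 model of all 4 groups, with a quasi-likelihood test per contrast and Benjamini-Hochberg adjustment over all genes tested. The common dispersion was 0.0073. Standard errors were the absolute log2 fold change divided by the square root of edgeR's F statistic. Values by library were given for CCNB1, CDK1, PLK1, AURKB, CDC20 and BUB1 and for the 2 highest and 2 lowest members in each of the 5 comparisons. Alternatives were DESeq2 1.42.0, other scalings, filters and thresholds, groups fitted alone, a replicate block and each library left out. Total counts of 30426401 to 49034244 set the counting precision, which does not cover differences between cultures. Tables and plots used Python 3.11.15, pandas 2.3.3 and matplotlib 3.10.9. The value of a single leukocyte marker is not reported here.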

Additional observations from a re-analysis of the deposited data

Results flagged for a closer look

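The response to H2O2 differed between the lines by its own test for 5 of the 39 mitosis genes, given as the log2 fold change of HaCaT minus that of TIGK. CCNB1 differed by 0.59 ± 0.096 (SE, edgeR adjusted p = 0.000477), with treated libraries above untreated ones in both lines. CDC20 differed by 0.46 ± 0.083 (edgeR adjusted p = 0.00133), KIF20A by 0.45 ± 0.095 (edgeR adjusted p = 0.00415) and CENPA by 0.71 ± 0.152 (edgeR adjusted p = 0.00508). KIF14 differed by -0.58 ± 0.115 (edgeR adjusted p = 0.00276), with all 3 treated HaCaT libraries below the untreated ones and overlapping groups in TIGK. The calls for CCNB1 and KIF14 held in all 19 alternative fits at the same threshold, whereas CDC20 was lost in 4, CENPA in 12 and KIF20A in 10.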

How the results depend on the processing

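At the same threshold and under all alternative fits (19 for the difference of responses and 20 for the rest), 29 of the 31 calls in HaCaT, 20 of 24 in TIGK, 16 of 25 between untreated lines, 12 of 14 between treated lines and 2 of 5 for the difference of responses were kept. With a log2 fold change past 1 also required, 0 genes were called in each direction in HaCaT, in TIGK, between untreated lines and for the difference of responses, and 1 higher and 1 lower between treated lines. The difference of responses called 2 genes higher with filterByExpr and 7 at an adjusted p under 0.05, and 2 lower with DESeq2, without mitochondrial genes in the scaling, without a filter, with filterByExpr and at 0.05. Its median over the 39 genes was 0.01 without mitochondrial genes, 0.001 without a filter and -0.004 with filterByExpr. Scaling by library totals gave medians of -0.111 between untreated and -0.051 between treated lines, and scaling without mitochondrial genes -0.024 between treated lines. Leaving out each library gave 28 to 31 genes higher and 1 lower in HaCaT, 22 to 26 higher and 0 lower in TIGK, 7 to 12 higher and 11 to 16 lower between untreated lines, 6 to 10 and 6 to 8 between treated lines, and 1 to 4 and 1 to 2 for the difference. The 7 were reached without untreated HaCaT replicate 3 or untreated TIGK replicate 1, and the 1 without untreated TIGK replicate 2 or treated TIGK replicate 2 or 3. The difference called 2 higher without untreated HaCaT replicate 1, treated HaCaT replicate 1 or 2 or treated TIGK replicate 1, and 2 lower without treated HaCaT replicate 1, untreated TIGK replicate 2 or treated TIGK replicate 3. The medians ranged from 0.438 to 0.495, 0.355 to 0.414, -0.071 to 0.01, -0.018 to 0.041 and -0.01 to 0.086 in that order, the last being -0.01 without treated TIGK replicate 3. Values near 0 changed sign for PLK1 between treated lines (-0.017 with library totals, -0.056 to 0.094 with a library left out, lowest without treated HaCaT replicate 2), for AURKB there (-0.073 to 0.014, highest without treated TIGK replicate 1) and for ASPM in TIGK (-0.028 to 0.159, lowest without untreated TIGK replicate 1). The cause was not tested. PRC1 had the lowest raw count of the members, 13 in 1 library.

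Between untreated lines, calls were also lost for BUB1B without untreated HaCaT replicate 1, TTK and CENPF without untreated HaCaT replicate 3 or untreated TIGK replicate 1, TOP2A without untreated TIGK replicate 3, ASPM without untreated HaCaT replicate 3 or untreated TIGK replicate 1 or 2, and BIRC5 in 11 alternatives. Between treated lines BUB1B was lost without treated HaCaT replicate 1 or 2 or treated TIGK replicate 2 or 3.

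Samples that share a replicate number did not deviate together from their group means (r from -0.121 to 0.0257). This gave no sign of pairing, but cannot show that same-numbered libraries were not prepared together. With the replicate block the members called higher and lower were 29 and 1 in HaCaT, 23 and 0 in TIGK, 11 and 13 between untreated lines, 8 and 6 between treated lines and 3 and 1 for the difference, with medians of 0.494, 0.36, -0.037, 0.027 and 0.06.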
